A study of Caenorhabditis elegans with 7 samples.

Results

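Transcription factors of the helix-loop-helix class were followed in Caenorhabditis elegans, a nematode, in embryos collected before gastrulation. The group comprised the 25 genes whose symbol is hlh- and a number, with ref-1, lin-32, cnd-1, ngn-1, hnd-1, mml-1, mxl-1, mxl-2 and mxl-3 in addition, which gave 34 genes of the 46748 in the count table. The rule goes by symbol and contains no measured value, though it was drawn up with earlier results of these data known. Messenger RNA had been sequenced in 7 libraries of whole embryos, 4 from flp-21(ok889) mutants, numbered 11, 22, 29 and 30, and 3 from wildtype, for which the labels use the name N2, numbered 11, 22 and 30. These are called flp-21 embryos and N2 embryos from here on. The mutated gene, flp-21, codes for a neuropeptide of the FMRFamide-like class, and the series title asks about control of maternal provisioning by neurons. Nothing in the labels gives the number of embryos per library, whether the libraries came from separate cultures, or whether the mutant was backcrossed, so the p-values cover only the variation among these 7 libraries, which may be technical in origin.

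Basic helix-loop-helix proteins bind DNA as dimers. Broadly expressed partners, of which HLH-2 is the worm's E protein, pair with factors that appear in one lineage, such as the MyoD relative HLH-1 in muscle or the achaete-scute, atonal and neurogenin relatives in neuroblasts. Members of the REF-1 family carry a pair of helix-loop-helix domains in one protein and are known as direct targets of Notch signalling in the early embryo, where the maternal receptor GLP-1 acts. A separate branch adds a leucine zipper: MML-1 is the Mondo relative and pairs with the Mlx relative MXL-2, the Max relative MXL-1 pairs with the Mad relative MDL-1, MXL-3 is a further Max-like protein, and HLH-30 is the relative of mammalian TFEB, known for its action on autophagy and lysosomal genes. RNA alone was measured.

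Total counts per library ran from 34164612 to 53620276, so 1 count was worth 0.0186 to 0.0293 CPM, counts scaled to the size of a library. The mutated gene flp-21 had 2, 1, 5 and 9 counts in flp-21 embryos against 24, 2 and 6 in N2, too few to check the genotype labels. Transcripts of other cells and stages set the groups apart. Summed sperm markers (38 of 38 lower in the mutant) held 65.7 to 193 CPM in flp-21 embryos against 8693 to 15697 CPM in N2, and adult intestine markers (10 of 10 lower) 0.755 to 987 against 5325 to 51148 CPM. Body wall muscle markers (10 of 10 lower) held 4.04 to 124 against 1065 to 4682 CPM and cuticle collagens (62 of 100 tested lower) 31.05 to 1297 against 7077 to 45889 CPM. Of these markers, collagens aside, msp-32 was at 0 in flp-21 libraries 22, 29 and 30, cpr-1, vit-1 and tnt-2 in flp-21 library 11 and elt-2 in flp-21 library 30. Maternal oocyte markers were at 7714 to 10106 CPM in flp-21 embryos against 5820.4 to 8989 CPM in N2, with 2 of 10 higher and 1 lower. The receptor gene glp-1, which was higher, is on this list and also on the Notch list below, so it is counted in both. Early embryo markers came from a list that names nos-2 beside first zygotic transcripts, so their sum is not of zygotic RNA alone. Of the 11 genes 0 passed in edgeR (0 at an unadjusted p under 0.05, and 1, higher, in DESeq2). They summed to 225 to 319 CPM in flp-21 embryos against 118, 71.5 and 365 CPM in N2 libraries 11, 22 and 30. In N2 library 22 med-1 and med-2 were at 0. The part of these differences in the results that follow was not tested. In such bulk samples, fewer cells of a type and less RNA per cell cannot be told apart.

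A few genes carried most of the RNA of the family. Levels between genes are compared as TPM, the length-scaled share of transcripts, computed from the counts and the exon length of each gene. The genes mxl-1, mxl-2 and hlh-2 together made up 67.02% to 90.1% of the TPM of all 34 genes in a library. Mean TPM over the 7 libraries exceeded 10 for 6 genes and stayed under 1 for 12.

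At the top stood mxl-1 (WBGene00003509, chromosome V from 11244839 to 11245928), with 348, 132, 134 and 572 TPM in flp-21 libraries 11, 22, 29 and 30, against 90.8, 83.9 and 177 TPM in N2 libraries 11, 22 and 30. Next came mxl-2 (WBGene00003510, chromosome III from 186945 to 188131), with 135, 145, 121 and 169.7 TPM in flp-21 embryos against 78.3, 78.97 and 174 TPM in N2. The level of mxl-1 was above that of mxl-2 in 6 of 7 libraries, but the ranges of the 2 genes overlapped in each genotype, so their order was not firm. The E protein gene hlh-2 followed, at 106, 127, 129 and 43.3 TPM in flp-21 embryos against 35.6, 12.02 and 19.1 TPM in N2, below mxl-1 in every library. In the mutant its libraries all lay above those of ref-1, the next gene at 27.9 ± 11.5 TPM (SD, n = 4), and in N2 they all lay below those of mxl-2. Behind them in the mutant followed hlh-3 at 22.02 ± 4.67 TPM, mml-1 at 21.5 ± 10.2 TPM and hnd-1 at 13.4 ± 4.005 TPM, neighbours whose ranges overlapped. In wildtype the place behind hlh-2 was held by hlh-30, at 9.65 ± 3.49 TPM (SD, n = 3), then by hlh-11 at 6.38 ± 2.62 TPM, again with overlapping ranges.

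**Figure D1:**
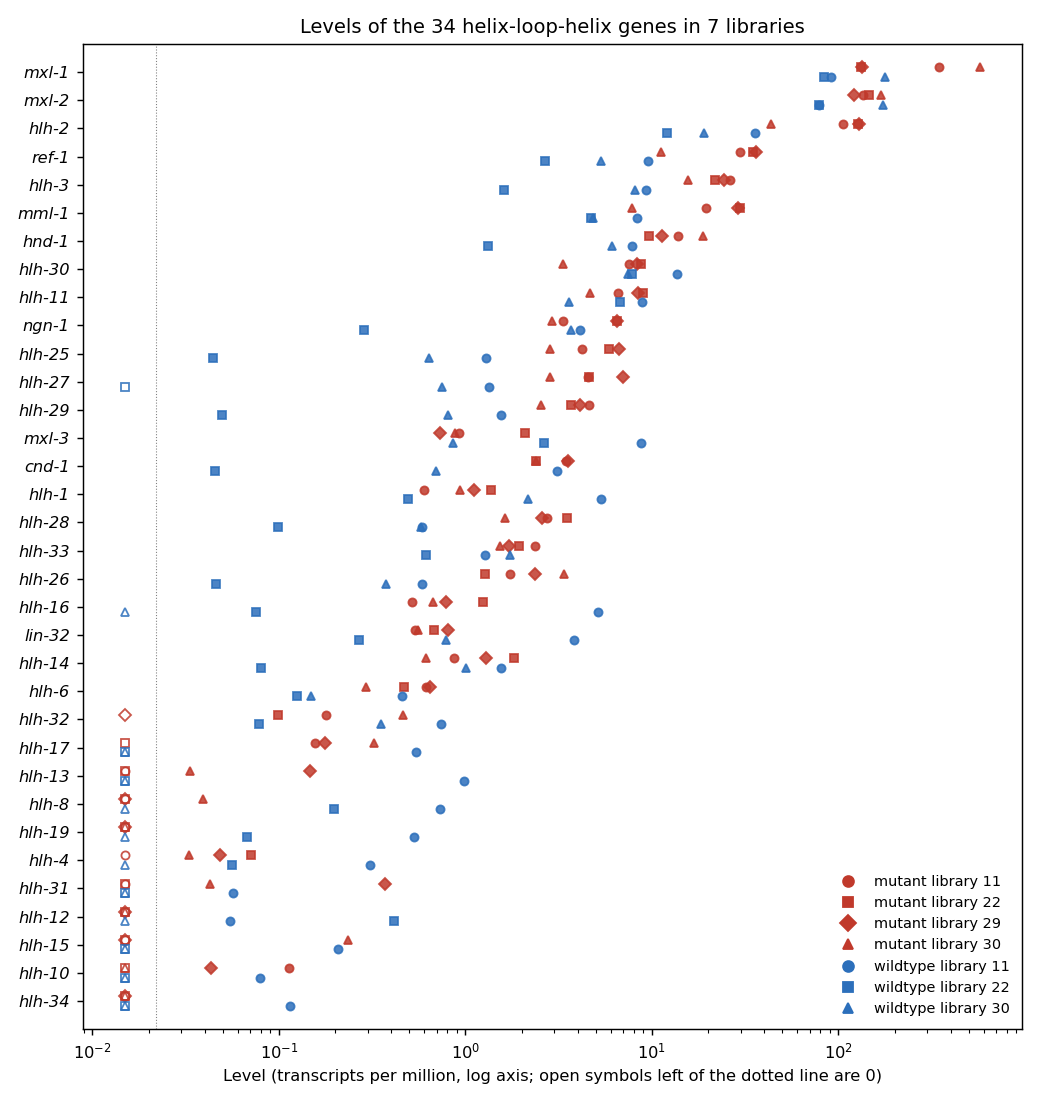
Level in TPM (log axis) of each of the 34 helix-loop-helix genes in the 4 mutant (red) and 3 wildtype (blue) libraries, symbols by library number, open symbols for a count of 0. The genes mxl-1, mxl-2 and hlh-2 stand at the top, and the 6 genes of the REF-1 family have all red symbols to the right of all blue ones. Open symbols are found mostly among the lowest genes, and also for hlh-27 in N2 library 22 and hlh-16 in N2 library 30.

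Between the genotypes, 22 of the 34 genes passed the count filter and 12 did not. By the edgeR quasi-likelihood test, with p-values adjusted by Benjamini-Hochberg over all 13035 genes tested and a threshold of 0.05, hlh-2, ref-1 and mml-1 rose in flp-21 embryos, mxl-3 fell and 18 did not pass. Among all genes tested 9.01% rose and 29.4% fell. The 3 rises of 22 thus stood near the background share and the single fall below it. The median log2 fold change of the 22 was 0.87, against -0.21 for all genes tested. With no filter beyond 1 count the median of all 34 was 0.03, against -0.46 for all genes then tested. In that fit 10 of the 12 genes under the filter had a negative log2 fold change. In CPM scaled by the trimmed mean of M values, every flp-21 library lay above every N2 library for 9 of the 22. These were hlh-2, ref-1, hlh-3, mml-1, hlh-25, hlh-26, hlh-27, hlh-28 and hlh-29, and for hlh-30 every flp-21 library lay below. Such separation held upwards for 14.1% and downwards for 30.5% of all genes tested. In TPM the groups overlapped for mml-1 and hlh-30, while for hnd-1, which overlapped in CPM, every flp-21 library lay above every N2 library. The edgeR common biological coefficient of variation was 0.576. DESeq2, run as an alternative on the same counts, called 9 genes higher and 1 lower, against 14.7% and 30.5% of all genes with an adjusted p.

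The count of helix-loop-helix genes called moved with the processing, and so did the share of all genes called. Upwards, by edgeR, 1 rose with upper quartile scaling (all genes 5.74%), 6 with DESeq2 size factors (11.7%), 6 with library size alone (13.2%), 5 without ribosomal RNA (10.8%), 4 with no filter (5.39%) and 0 with a filter of 5 CPM (6.56%). Downwards the counts were 2, 0, 0, 1, 0 and 1 in the same order, against 31.3, 28, 27.4, 28.6, 20.6 and 20.3% of all genes. With the library number as a block 1 rose and 0 fell (10.5% and 23.1%). Without flp-21 library 11, 22, 29 or 30, the numbers that rose were 1, 1, 1 and 3, against 4.63, 5.20, 4.60 and 9.64% of all genes, and 0 fell, against 24.9, 25.2, 25.1 and 29.4%. Without N2 library 11, 22 or 30, 4 rose each time, against 6.15, 7.74 and 17.7%, and 0, 2 and 1 fell, against 23.3, 25.2 and 33.8%. Without flp-21 libraries 22 and 29 none rose or fell in edgeR (2.42% and 21.1% of all genes), where 3 were higher and 0 lower at an unadjusted p under 0.05, and without N2 libraries 11 and 22 the count was 1 and 0 (6.89% and 13.9%). The median log2 fold change of all genes itself shifted with the scaling, from -0.21 to -0.42 under upper quartile scaling, -0.06 under the size factors of DESeq2 and 0.01 when scaled by library size only.

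The authors' deposited table of their own DESeq2 comparison, which lists genes past a fold and p threshold, holds 8 of the 34 genes. In the authors' deposited table the log2 fold changes are 1.74 for hlh-2, 1.80 for ref-1, 2.46 for hlh-25, 2.40 for hlh-26, 2.32 for hlh-27, 2.17 for hlh-28, -2.16 for mxl-3 and -1.78 for hlh-1. Of these, the authors' deposited table gives hlh-1 the largest adjusted p, 0.0485.

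**Figure D2:**
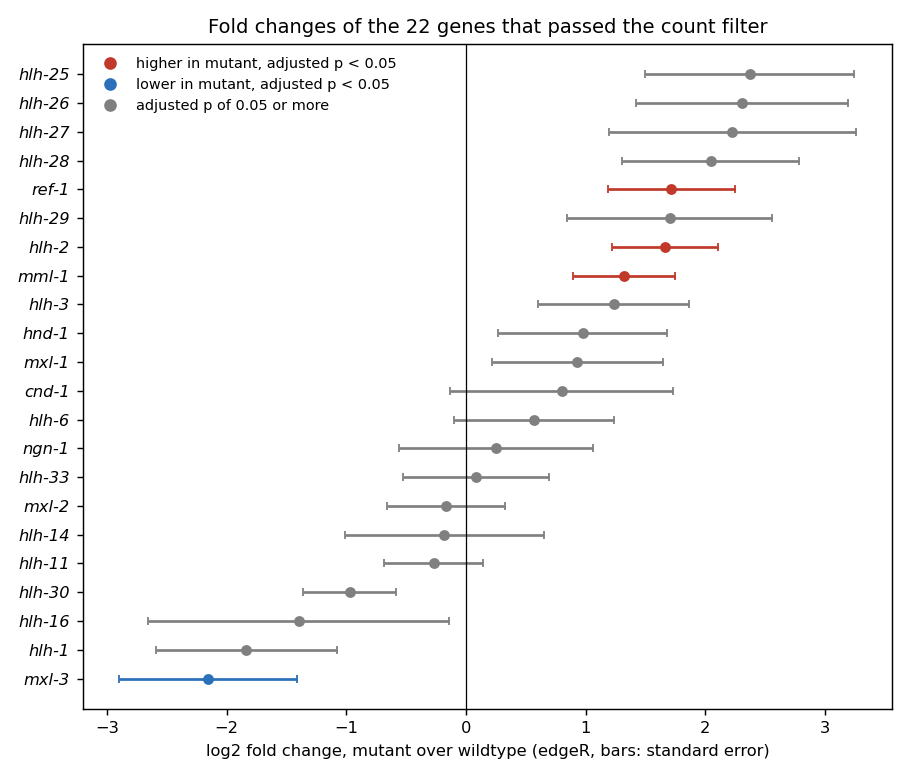
Log2 fold change, mutant over wildtype, of the 22 helix-loop-helix genes that passed the count filter, from edgeR over 4 mutant and 3 N2 libraries, with standard errors as bars. The 3 red genes (ref-1, hlh-2, mml-1) and the blue gene (mxl-3) passed the adjusted p threshold; hlh-25 to hlh-28 lie further to the right than the red genes, with wider bars.

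The E protein gene hlh-2 (WBGene00001949, chromosome I) was higher in flp-21 embryos. Its levels were 102, 123, 122 and 62.9 CPM in flp-21 libraries 11, 22, 29 and 30, against 45.1, 15.9 and 35.97 CPM in N2 libraries 11, 22 and 30, with CPM here and below scaled by the trimmed mean of M values (TMM). All flp-21 libraries lay above all wildtype ones, with flp-21 library 30 the nearest to wildtype and N2 library 22 the lowest of all. The rise was 3.17-fold, from 32.3 ± 14.97 (SD, n = 3) to 102 ± 27.97 CPM (SD, n = 4), a log2 fold change of 1.66 (SE 0.44, edgeR adjusted p = 0.0142). It passed whichever single library was left out. The call was lost with a filter of 5 CPM (edgeR adjusted p = 0.0506), without flp-21 libraries 22 and 29 together (edgeR adjusted p = 0.101) and without N2 libraries 11 and 22 together (0.0611), where 1 N2 library stands alone and is assumed to vary like the mutant ones.

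The REF-1 family, known targets of Notch in the embryo, held the 6 largest positive log2 fold changes among the 22 tested helix-loop-helix genes. All 6 of its genes passed the count filter, and in all 6 every flp-21 library lay above every N2 library, as held for 14.1% of all genes tested. By edgeR 1 of the 6 rose, ref-1, and 5 did not pass, where 9.01% of all genes rose, while DESeq2 called all 6 higher, where it called 14.7% of all genes higher. The family median log2 fold change was 2.13, against -0.21 over all genes tested. Together the 6 genes held 23.8 to 40.8 CPM in flp-21 embryos against 3.23 to 14 CPM in N2.

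The founding gene ref-1 (WBGene00004334, chromosome II from 10218471 to 10220025), the most abundant of the family, stood at 25.01, 29.2, 29.5 and 14.05 CPM in flp-21 libraries 11, 22, 29 and 30, against 10.5, 3.08 and 8.75 CPM in N2 libraries 11, 22 and 30. The flp-21 library 30, the lowest of its group, still lay above N2 library 11, the highest of the other. From 7.44 ± 3.88 CPM (SD, n = 3) in N2 to 24.5 ± 7.24 CPM (SD, n = 4) in the mutant, ref-1 rose 3.28-fold (log2 1.72, SE 0.53, edgeR adjusted p = 0.0280). Without flp-21 library 11, 22 or 29 the adjusted p was 0.0642, 0.0715 or 0.0748, and it was 0.0558 with upper quartile scaling. The call was also lost with a filter of 5 CPM (0.0760) and without flp-21 libraries 22 and 29 (0.165) or N2 libraries 11 and 22 (0.0851), and it held in 9 of 17 alternatives.

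The genes hlh-25, hlh-26 and hlh-27 of the same family lie side by side on chromosome II within 7355 bases, from 5532857 to 5540211 in build WBcel235. The raw counts of hlh-25 (WBGene00001964) were 84, 106, 174 and 109 in flp-21 libraries 11, 22, 29 and 30, against 37, 1 and 16 in N2 libraries 11, 22 and 30, which TMM scaling turns into 2.53 ± 0.556 CPM (SD, n = 4) and 0.485 ± 0.410 CPM (SD, n = 3). For hlh-27 (WBGene00001966) they were 116, 105, 233 and 138 in flp-21 embryos against 49, 0 and 24 in N2, or 3.13 ± 0.729 and 0.665 ± 0.583 CPM. A count of 0, as in N2 library 22, allows up to 3 counts. The least abundant of the trio, hlh-26 (WBGene00001965), had counts of 33, 22, 59 and 124 in flp-21 embryos against 16, 1 and 9 in N2, with flp-21 library 30 well above the rest. N2 library 22 was nearly empty of all 3 genes. Their log2 fold changes were 2.37 (SE 0.87), 2.31 (SE 0.88) and 2.23 (SE 1.03) for hlh-25, hlh-26 and hlh-27, and the edgeR adjusted p-values of 0.0550, 0.0640 and 0.119 missed the threshold. When N2 library 22 was left out, the values for hlh-25 and hlh-27 passed (0.0372 and 0.0437), at smaller log2 fold changes of 1.93 and 1.76. Without N2 library 11 the log2 fold changes were larger, at 3.196 and 3.00, and did not pass (edgeR adjusted p = 0.0507 and 0.121).

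The last pair, hlh-28 and hlh-29, lies on chromosome X within 4061 bases, from 17547817 to 17551877, on opposite strands and with equal exon lengths of 720 bases. They are known as near-identical copies, so reads cannot be assigned with certainty to either. Taken as 1 sum, they had 131, 115, 156 and 143 counts in flp-21 libraries 11, 22, 29 and 30, against 55, 3 and 31 in N2 libraries 11, 22 and 30. The flp-21 libraries lay close together, at 2.73 to 3.19 CPM, and N2 library 22 was again the lowest. Fitted singly, hlh-28 had a log2 fold change of 2.05 (SE 0.74, edgeR adjusted p = 0.0520) and hlh-29 one of 1.70 (SE 0.86, 0.148). The early embryo markers, given above, were lowest in N2 library 22 and highest in N2 library 30. The REF-1 family sums were 14, 3.23 and 11.8 CPM in N2 libraries 11, 22 and 30, all below those of flp-21 embryos. The part of the early embryo markers in the family's levels was not tested.

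**Figure D3:**
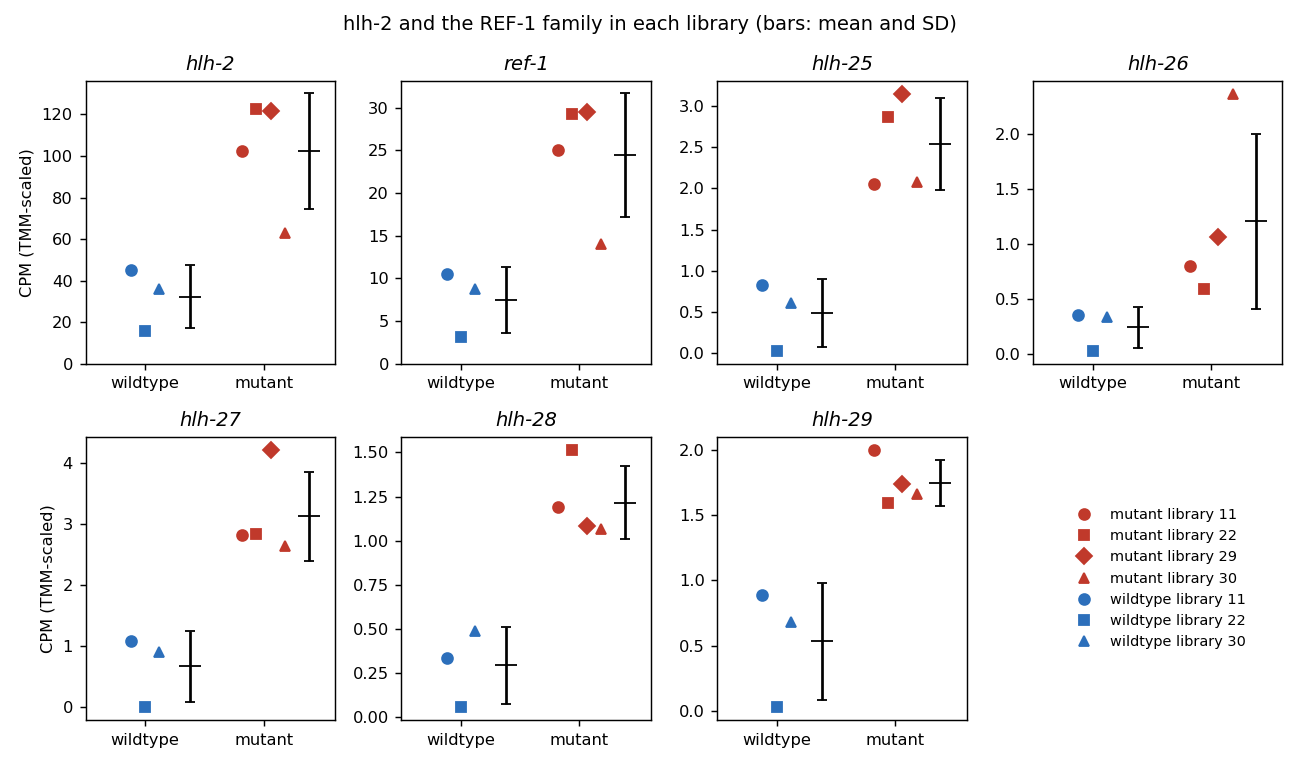
TMM-scaled CPM (linear axes) of hlh-2 and the 6 genes of the REF-1 family in each of the 3 wildtype (blue) and 4 mutant (red) libraries, symbols by library number, with the mean and SD beside each group. In every panel all flp-21 libraries lie above all N2 libraries, and N2 library 22 is the lowest.

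Notch signalling genes, from a list of 12 that holds ligands, receptors, processing enzymes and the nuclear complex, had 4 of 12 members higher in the mutant and 0 lower, where 9.01% of all genes rose and 29.4% fell, with a median log2 fold change of 0.88 against -0.21 over all genes tested. The receptor gene glp-1 rose from 151 ± 48.6 CPM in wildtype to 471 ± 187 CPM in the mutant (log2 1.64, edgeR adjusted p = 0.0180). On the nuclear side, lag-1, which encodes the DNA-binding CSL protein, rose from 89.3 ± 8.47 CPM in wildtype to 210.0 ± 43.5 CPM in the mutant and sel-8, a Mastermind-like co-activator gene, from 21.6 ± 16.6 CPM in wildtype to 73.1 ± 25.2 CPM in the mutant (edgeR adjusted p = 0.0112 and 0.0271). The ADAM protease gene sup-17, known to cleave Notch receptors, rose from 158 ± 8.91 CPM in wildtype to 345 ± 104 CPM in the mutant (0.0274 in edgeR). The 8 others, with the ligand genes apx-1 and lag-2 and the other receptor gene lin-12 among them, did not pass. With 1 library left out, 1 member passed upwards without N2 library 11 and 8 without N2 library 30, where 6.15% and 17.7% of all genes rose. The count was 2 without flp-21 library 22 or 29, where 5.20% and 4.60% of all genes rose. Without flp-21 libraries 22 and 29 together 0 passed in edgeR, where 2.42% of all genes rose, and 0 were higher or lower at an unadjusted p under 0.05.

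In the leucine zipper branch, the Mondo gene mml-1 rose, the Max-like gene mxl-3 fell and mxl-1, mxl-2 and hlh-30 did not pass. The 5 genes together held 161 to 381 CPM in flp-21 embryos against 113 to 287 CPM in N2, overlapping ranges. Their median log2 fold change was -0.17, with 2 above 0 and 3 below.

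The levels of mml-1 (WBGene00003378, chromosome III from 7370131 to 7374725) were 41.6, 62.8, 59.8 and 24.9 CPM in flp-21 libraries 11, 22, 29 and 30, against 23.1, 13.7 and 19.9 CPM in N2 libraries 11, 22 and 30. In CPM the groups did not overlap, but flp-21 library 30 was within 2 CPM of N2 library 11. In TPM they overlapped, with 7.80 TPM in flp-21 library 30 against 8.28 TPM in N2 library 11. The rise was 2.499-fold, from 18.9 ± 4.76 to 47.3 ± 17.6 CPM (log2 1.32, SE 0.43, edgeR adjusted p = 0.0335). The call was lost without flp-21 library 11, 22 or 29 or N2 library 22, with an edgeR adjusted p of 0.0662, 0.0998, 0.100 or 0.0707, and it held in 8 of 17 alternatives. Of its 3522 exon bases 97 are shared with T20B12.11, a non-coding gene.

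The gene of its partner, mxl-2, did not pass. It stood at 57.1, 61.3, 49.97 and 108 CPM in flp-21 embryos against 43.5, 45.7 and 144 CPM in N2 (log2 fold change -0.17, SE 0.49, edgeR adjusted p = 0.821). N2 library 30 was the highest of all 7. It also had the smallest TMM factor, 0.732 against 0.979 to 1.20 in the others. Ribosomal RNA made up 13.3% of its counts, against 2.38% to 6.47% in the others. The sign of the log2 fold change of mxl-2 changed with the scaling. Per length, mml-1 was at 0.0460 to 0.238 of the level of mxl-2 in the flp-21 libraries and at 0.0276 to 0.106 in N2.

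The Max gene mxl-1 split the libraries within each genotype. It was at 96.6, 36.7, 36.4 and 238 CPM in flp-21 libraries 11, 22, 29 and 30, against 33.1, 31.8 and 95.7 CPM in N2 libraries 11, 22 and 30. The flp-21 libraries 22 and 29 lay beside N2 libraries 11 and 22, flp-21 library 11 lay beside N2 library 30, and flp-21 library 30 was far above all. The log2 fold change of 0.93 (SE 0.71, edgeR adjusted p = 0.341) did not pass, and it was 0.076 without flp-21 library 30 and 1.78 without N2 library 30. The gene of its known partner, the Mad relative mdl-1, was at 1.68 ± 0.362 CPM in flp-21 embryos against 3.94 ± 3.14 CPM in N2 and did not pass either (log2 -1.23, edgeR adjusted p = 0.143). Adult intestine markers were at 0.755, 987, 906 and 7.66 CPM in flp-21 libraries 11, 22, 29 and 30. In N2 libraries 11, 22 and 30 these markers were at 45733, 51148 and 5325 CPM. The part of these markers in the levels of mxl-1 was not tested.

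Counts of mxl-3 (WBGene00003511, chromosome X from 13349640 to 13350804) were 23, 47, 24 and 42 in flp-21 libraries 11, 22, 29 and 30, against 314, 75 and 27 in N2 libraries 11, 22 and 30. As scaled levels, they were 0.560, 1.27, 0.434 and 0.801 CPM and 6.99, 2.2 and 1.02 CPM, so that N2 library 30 lay within the mutant range and N2 library 11 far above it. The fall was 4.45-fold (log2 -2.15, SE 0.74, edgeR adjusted p = 0.0432). It passed in 4 of 16 alternatives, and among the single libraries left out, without N2 library 30 alone. Without N2 library 11 the log2 fold change shrank to -0.99, and without N2 libraries 11 and 22 to -0.20 (edgeR adjusted p = 0.302 and 0.856). Adult intestine markers were at 45733, 51148 and 5325 CPM in N2 libraries 11, 22 and 30 and cuticle collagens at 45889, 10369.9 and 7077 CPM, and their part in the result was not tested.

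The TFEB gene hlh-30 (WBGene00020930, chromosome IV from 4014799 to 4028127) had 13.7, 15.7, 14.7 and 9.04 CPM in flp-21 embryos against 32.4, 19.3 and 26.3 CPM in N2 libraries 11, 22 and 30. In CPM every flp-21 library lay below every wildtype one, flp-21 library 30 the lowest. In TPM the groups overlapped, with 8.70 and 8.34 TPM in flp-21 libraries 22 and 29 against 7.81 and 7.47 TPM in N2 libraries 22 and 30. The log2 fold change of -0.97 (SE 0.39, edgeR adjusted p = 0.0755) missed the threshold, and passed with upper quartile scaling (0.0421) and with a filter of 5 CPM (0.0425). Of 12 tested genes of autophagy and lysosome on which HLH-30 is known to act, 0 rose and 4 fell by edgeR, where 9.01% and 29.4% of all genes did, and 0 and 3 by DESeq2, where 14.7% and 30.5% did, so the falls were near the background share. Those of edgeR were sqst-1, which encodes an autophagy receptor, from 21.04 ± 12.7 CPM in wildtype to 4.16 ± 3.01 CPM in the mutant (edgeR adjusted p = 0.0230), the lysosomal lipase genes lipl-2 and lipl-5, with log2 fold changes of -7.67 and -8.09, and the proton pump gene vha-12, with -0.83. The 8 others did not pass, and the median log2 fold change of the 12 was -0.21, the same as over all genes tested. Adult intestine transcripts were lower in the same libraries, as given above, and their part was not tested; without N2 libraries 11 and 22 only lipl-5 passed downwards, and without N2 library 30, of 13 tested, 3 rose (atg-9, lgg-1 and lgg-2) and 5 fell. In the fit without N2 library 30, 17.7% of all genes rose and 33.8% fell. With library size alone atg-9 rose (13.2% of all genes), and with the library number as a block lgg-1 did (10.5%).

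**Figure D4:**
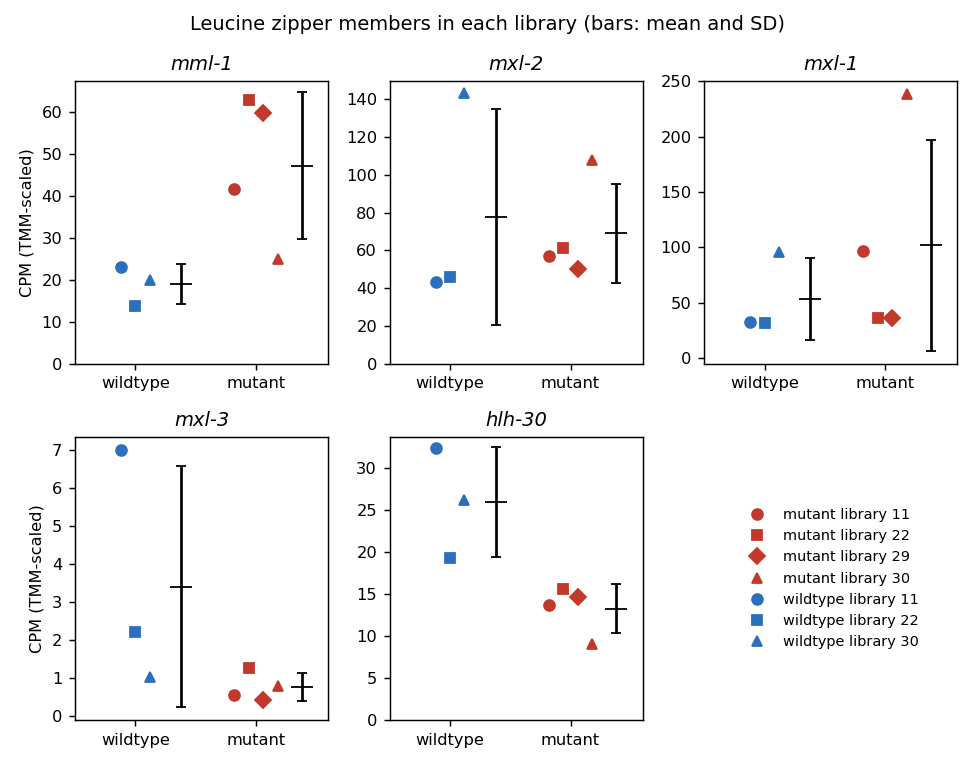
TMM-scaled CPM (linear axes) of mml-1, mxl-2, mxl-1, mxl-3 and hlh-30 in each of the 3 wildtype (blue) and 4 mutant (red) libraries, symbols by library number, with the mean and SD beside each group. The groups are apart for mml-1 (mutant higher) and hlh-30 (mutant lower), while in each genotype mxl-1 and mxl-2 peak in the library numbered 30, and mxl-3 is highest in N2 library 11.

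Genes of the mesoderm gave no call in edgeR or in DESeq2 as run here, with 1 of the 2 tested, hlh-1, at an unadjusted p under 0.05 in edgeR. The authors' own DESeq2 comparison does list hlh-1, lower, with an adjusted p of 0.0485, against 0.0556 in the DESeq2 run here. The MyoD gene hlh-1 (WBGene00001948, chromosome II from 4518560 to 4522457) had 16, 33, 39 and 48 counts in flp-21 libraries 11, 22, 29 and 30, against 206, 15 and 73 in N2 libraries 11, 22 and 30. These are 0.390, 0.892, 0.705 and 0.915 CPM in flp-21 embryos against 4.58, 0.440 and 2.75 CPM in N2, where libraries 11 and 30 lay above every flp-21 library and library 22 below all of them except flp-21 library 11. The log2 fold change was -1.83 (SE 0.76, edgeR adjusted p = 0.0830), and it passed without N2 library 22 (0.0204). Without N2 library 11, the highest, it was -0.97 (edgeR adjusted p = 0.369). Body wall muscle markers, sarcomere genes all 10 of which fell in the mutant (median log2 fold change -5.29), summed to 4682, 1950.1 and 1065 CPM in N2 libraries 11, 22 and 30, and to 4.04, 124, 122 and 5.66 CPM in flp-21 libraries 11, 22, 29 and 30. The flp-21 libraries 11 and 30, with the least of these markers, held 0.390 and 0.915 CPM of hlh-1. The part of these markers in the levels of hlh-1 was not tested.

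The Hand gene hnd-1, which acts in mesoderm and the gonad precursors, was at 6.99, 4.87, 5.601 and 14.3 CPM in flp-21 embryos against 5.21, 0.909 and 5.995 CPM in N2. In CPM flp-21 library 30 was the highest and flp-21 libraries 22 and 29 lay inside the N2 range (log2 fold change 0.98, SE 0.70, edgeR adjusted p = 0.309). In TPM every flp-21 library lay above every N2 library, at 13.9, 9.65, 11.4 and 18.9 TPM against 7.85, 1.32 and 6.09 TPM. The Twist gene hlh-8, of the postembryonic mesoderm lineage, had 0, 0, 0 and 1 counts in flp-21 embryos against 14, 3 and 0 in N2 and stayed under the count filter. Of the genes that act beside hlh-1 in muscle fate, pal-1, a maternal caudal-like gene, had a log2 fold change of 0.93 and unc-120, a serum response factor gene, one of -2.15 (edgeR adjusted p = 0.0606 and 0.0532). Neither passed in edgeR, though both had an unadjusted p under 0.05, and in DESeq2 pal-1 rose and unc-120 fell.

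Of the 9 proneural relatives 5 passed the filter. By edgeR 0 were called, where 9.01% of all genes rose and 29.4% fell, with 0 at an unadjusted p under 0.05. DESeq2 called 1, hlh-3, higher, where it called 14.7% of all genes higher and 30.5% lower. The achaete-scute gene hlh-3 (WBGene00001950, chromosome II from 9086608 to 9087917), which acts in newly born neurons, was at 12.95, 10.8, 11.7 and 11.5 CPM in flp-21 libraries 11, 22, 29 and 30, against 6.05, 1.09 and 7.84 CPM in N2 libraries 11, 22 and 30. The flp-21 libraries were tightly grouped and above all of wildtype, where library 22 was far below the others. Its log2 fold change of 1.24 (SE 0.63) had an edgeR adjusted p of 0.153 and a DESeq2 adjusted p of 0.0369. The NeuroD gene cnd-1 had 67, 42, 91 and 89 counts in flp-21 embryos against 87, 1 and 17 in N2, and the neurogenin gene ngn-1 51, 90, 131 and 86 and 91, 5 and 71. On the TMM scale N2 library 11 lay above every flp-21 library for cnd-1, at 1.94 CPM against at most 1.70 CPM, and within their range for ngn-1, while N2 library 22 was far below in both. Their log2 fold changes were 0.80 (SE 0.93) and 0.25 (SE 0.81), neither past the threshold, and that of cnd-1 was 2.40 without N2 library 11. The achaete-scute genes hlh-14, of neuroblast division, and hlh-6, of the pharyngeal glands, had log2 fold changes of -0.18 and 0.57. The atonal gene lin-32, with 7, 8, 14 and 14 counts in flp-21 embryos and 72, 4 and 13 in N2, was under the filter, as were hlh-4, hlh-12 and hlh-19. Neuron markers summed to 215 to 369 CPM in flp-21 embryos against 117 to 345 CPM in N2, with sng-1 at 0 in N2 library 30. By edgeR 1 of 8 tested was lower, where 29.4% of all genes fell.

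Among the remaining members hlh-11, hlh-33 and hlh-16 passed the filter. The AP4 relative hlh-11 was even across libraries, at 7.94, 10.8, 9.95 and 8.48 CPM in flp-21 embryos against 13.9, 11.1 and 8.45 CPM in N2 (log2 fold change -0.27, SE 0.41, edgeR adjusted p = 0.652). Of its 1999 exon bases 505 overlap the gamma-tubulin gene tbg-1, and reads there cannot be assigned to one gene without strand. The gene hlh-33 had a log2 fold change of 0.09 (SE 0.61). For hlh-16, an Olig relative, N2 library 11 decided the sign. It had 6, 13, 12 and 15 counts in flp-21 embryos against 86, 1 and 0 in N2 libraries 11, 22 and 30, with a log2 fold change of -1.40 over all libraries and of 3.79 without N2 library 11 (edgeR adjusted p = 0.420 and 0.0376), where N2 holds 1 count in all.

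The 12 genes under the filter were lin-32, hlh-32, hlh-17, hlh-13, hlh-8, hlh-19, hlh-4, hlh-31, hlh-12, hlh-15, hlh-10 and hlh-34. Many of them are known from differentiated neurons, glia or later mesoderm, such as hlh-17 in sheath glia. They summed to 13, 10, 28 and 39 counts in flp-21 libraries 11, 22, 29 and 30, against 157, 16 and 18 in N2 libraries 11, 22 and 30. N2 library 11 held counts of all 12, N2 library 30 of 2, and the flp-21 libraries of 3 to 8. The genes hlh-12, hlh-19 and hlh-34 had no count in any flp-21 library, where 0 allows up to 3 counts in each. With no filter beyond 1 count, all 12 were tested and 0 passed in edgeR, with 3 at an unadjusted p under 0.05, hlh-8, hlh-12 and hlh-19, each lower. The gene lin-32 passed the filter in some of the alternatives and was called, lower, in 1 of them, without N2 library 22 (log2 -2.12, edgeR adjusted p = 0.0473).

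Within each library some genes kept a steady proportion to one another and others did not. These ratios, of TPM, were chosen after their values were seen. The level of hlh-2 was 3.57 to 3.898 times that of ref-1 in flp-21 embryos against 3.58 to 4.49 times in N2. Against hlh-30 the level of hlh-2 was 13 to 15.5 times as high in flp-21 embryos against 1.54 to 2.604 times in N2. That ratio was apart between the genotypes. It had to be, since in CPM every flp-21 library lay above N2 for hlh-2 and below N2 for hlh-30, so it adds no further support. The flp-21 library 30 lay beside the other flp-21 libraries, although it had the lowest levels of both genes in its group. The ratio of mxl-1 to mxl-2 was 1.02 to 1.16 in N2 and 0.913 to 3.37 in the mutant, where libraries 11 and 30 stood high and libraries 22 and 29 near 1.

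Helix-loop-helix genes outside the symbol rule were set beside the family. Of 7 such genes 5 were tested, and 1 rose and 0 fell, where 9.01% of all genes rose and 29.4% fell by edgeR. The gene that rose was aha-1, which encodes the ARNT-like partner of PAS-domain factors. It went from 9.65 ± 5.79 CPM in wildtype to 32 ± 5.15 CPM in the mutant (log2 1.73, edgeR adjusted p = 0.0159). Of its alternatives, the call was lost without N2 library 22, without flp-21 libraries 22 and 29 and with a filter of 5 CPM. The 4 others tested, mdl-1 among them, did not pass, and the median log2 fold change of the 5 was -0.07.

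**Figure D5:**
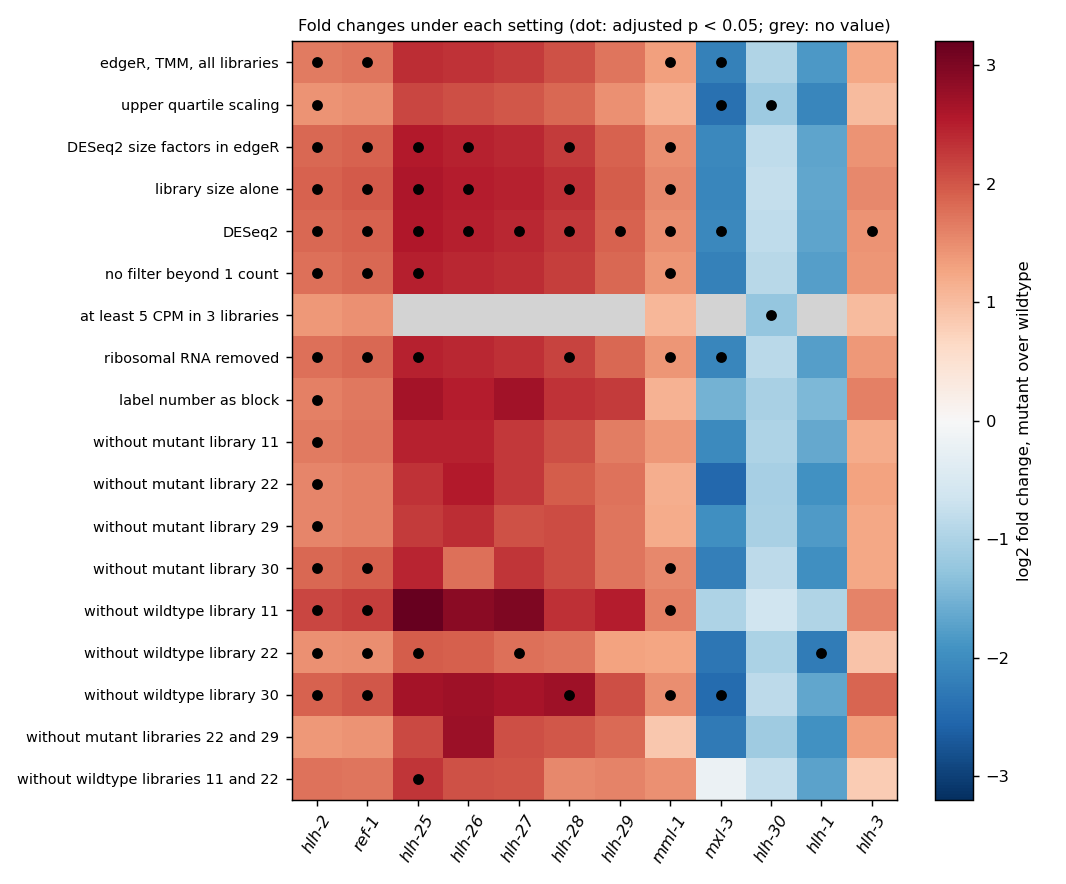
Log2 fold change, mutant over wildtype (colour), of 12 helix-loop-helix genes (columns) under the test reported and each of 17 alternatives (rows), with a dot where the adjusted p passed 0.05 and grey where the gene was not tested. The columns of hlh-2 and the REF-1 family stay red in every row with a value, whereas the dots of ref-1, mml-1 and mxl-3 come and go.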

How the data were processed

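RNA from early embryos was extracted with Trizol and sequenced after TruSeq library preparation, per the labels' protocols. The authors deposited raw counts of reads per gene, made with featureCounts 1.6.4 over exons per the file headers, with no option for strand, pairs or multiply mapped reads. Per the submitters' processing notes, BWA and build WBcel235 were used, with no role given; BWA does not align across introns, which can lower counts of genes with short exons. The authors' deposited table of their DESeq2 comparison gives log2 fold changes, p-values and mean signal. An alignment named wildtype 29 in the header has no column and was not analysed here.

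Symbols from the Ensembl annotation of WBcel235 and a name table matched 43693 of 46748 genes and all 34 members. Coordinates are those of the count table, in which exon length was the summed length for TPM. Libraries were grouped by genotype. The test was edgeR 4.0.16 (R 4.3.3), quasi-likelihood with robust dispersion, TMM and filterByExpr, genotype as the only term, adjusted by Benjamini-Hochberg, and checked on simulated data. SE is the log2 fold change over the square root of F. DESeq2 1.42.0, other scalings and filters, removal of ribosomal RNA, the label number as a block and left-out libraries were alternatives. The limit that a count of 0 allows (3 counts) covers counting error only. Members, role groups and gene lists were chosen with earlier results of these data known. Named genes were all members, with values in each library for those called, the 12 most abundant and 15 listed for their role, and, of other genes, mdl-1 and those called; the Notch ligands and lin-12, and pal-1 and unc-120 as the whole muscle fate list, were named after their values were seen.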

Additional observations from a re-analysis of the deposited data

Results flagged for a closer look

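Of 22 members whose flp-21 libraries were checked for 1 library far from the other 3, 2 had such a library, and chance gives about 1 in 20. The measure was the gap to the nearest library over the whole range of the 4, set against Dixon's 95% critical value. For hlh-27, flp-21 library 29 stood above the others at 4.21 CPM, against 2.63 to 2.84 CPM, a measure of 0.869. For cnd-1, flp-21 library 22 stood below the others at 1.14 CPM, against 1.63 to 1.70 CPM, a measure of 0.884. Neither gene passed the edgeR test.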

How the results depend on the processing

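Among all genes tested, 1175 rose and 3829 fell. The number that rose was 748 with upper quartile scaling, 1902 with DESeq2, 505 with a filter of 5 CPM, 339 without flp-21 libraries 22 and 29, and 589 to 2505 with 1 library left out (1235 without flp-21 library 30). The number that fell was 1564 with that filter, 1906 without N2 libraries 11 and 22 and 3058 to 4777 with 1 library left out. Of the helix-loop-helix genes, 3 rose and 1 fell; 1 and 2 did with upper quartile scaling, 6 and 0 with DESeq2 size factors and also with scaling by library size, 9 and 1 with DESeq2, 0 and 1 with the 5 CPM filter, 4 and 0 with no filter, 5 and 1 without ribosomal RNA, 0 and 0 without flp-21 libraries 22 and 29, 1 and 0 without N2 libraries 11 and 22, and 1 to 4 and 0 to 2 with 1 library left out. The filter of 5 CPM tests fewer genes, and each left-out library removes a sample. The labels do not say whether equal library numbers pair the samples. Deviations of flp-21 and N2 libraries numbered 11, 22 and 30 correlated at -0.15, 0.09 and 0.49 across genes. Not every library correlated best with its own number, but so few libraries cannot decide the question, and no pairing was assumed. With the number as a block, 1 helix-loop-helix gene rose and 0 fell. The calls of ref-1 and mml-1 were lost with the block as well (0.0795 and 0.107), that of mml-1 also with upper quartile scaling and the 5 CPM filter, and that of mxl-3 with DESeq2 size factors, library size alone and no filter. The log2 fold changes of hlh-2, mml-1, mxl-3, hlh-30 and the REF-1 family kept their direction in each alternative in which the gene was tested. The sign of 6 genes that did not pass changed. For mxl-2 it was 0.046 with DESeq2 size factors, 0.046 with DESeq2, 0.16 with library size alone, 0.0086 with no filter, 0.14 with the block, 0.12 without flp-21 libraries 22 and 29 and -0.47 to 0.75 with 1 library left out. For hlh-14 it was 0.015 with DESeq2 size factors, 0.016 with DESeq2, 0.063 with library size alone, 0.11 with the block and -0.61 to 0.41 with 1 library left out. For hlh-16 it was 1.19 with the block, 6.45 without N2 libraries 11 and 22, a fitted value against a count of 0 that measures no fold, and -1.91 to 3.79 with 1 left out. For hlh-33 it was -0.12 with upper quartile scaling, -0.46 without N2 libraries 11 and 22 and -0.10 to 0.86 with 1 left out. For ngn-1 it was -0.13 without flp-21 libraries 22 and 29, -0.27 without N2 libraries 11 and 22 and -0.17 to 0.94 with 1 left out, and for hlh-11 0.36 without N2 libraries 11 and 22 and -0.34 to 0.027 with 1 left out. Beyond what an alternative leaves out by its construction, the cause was not tested. A count of 0, as for hlh-16 and hlh-27 in 1 N2 library each, allows up to 3 counts.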
